A study of Homo sapiens with 18 samples.

Results

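The genes examined here carry out glycolysis or respond to low oxygen, and 39 of them were chosen by symbol. The choice was made with earlier results of these data known, so the shares of all genes given below are a description, not an independent test. They comprise the enzymes and transporters from glucose uptake to lactate export and well-known targets of the hypoxia-inducible factor HIF. All 39 were found among the 58735 genes of the count table, and all 39 were among the 17409 genes that passed a filter on low counts. The libraries came from a wound model in which a layer of cultured epithelial cells was scratched and RNA was taken later. HaCaT, a skin keratinocyte line, was sampled unscratched (0 h), at 6 h and at 24 h, and TIGK, a gingival (oral) keratinocyte line immortalised with telomerase, was sampled in the same way. Each of the 6 groups had 3 libraries, all from bulk total RNA, and the comparison asked how the skin and the oral line differ before and after the scratch. Each tissue was represented by 1 immortalised line, so line and tissue of origin cannot be told apart. No unscratched culture of either line was sampled at 6 h or 24 h, so time in culture and the scratch cannot be told apart either.

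Glycolysis splits glucose into pyruvate in the cytosol and yields ATP without oxygen. Lactate dehydrogenase then turns pyruvate into lactate, which leaves the cell through monocarboxylate transporters. Pyruvate dehydrogenase kinases inactivate pyruvate dehydrogenase, the enzyme that uses pyruvate in the mitochondrion. When oxygen is plentiful, prolyl hydroxylases of the EGLN family mark the alpha subunits of HIF for destruction through the VHL protein. When oxygen falls, the alpha subunits persist, pair with ARNT and bind a short core motif in the promoters and enhancers of many glycolytic and angiogenic genes. In skin and mucosa, keratinocytes lie away from the vessels, and HIF signalling and glycolysis are known for their part in the closure of wounds.

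The libraries held 14238090 to 25011331 counts assigned to genes. Libraries TIGK 0 h C and TIGK 6 h C stood apart: they listed 26246 and 25161 genes with a count, against 21164 to 22799 in the others, and their mitochondrial shares of 5.08% and 4.98% were the lowest. Without them, 33 of the 39 genes were called at 24 h relative to 0 h in HaCaT, against 31 with them. For TIGK it was 18 against 20, and for the difference between the lines 30 against 27. These counts are not set beside those of all genes, so they describe only how the calls depend on those libraries. Levels are given as CPM (counts scaled by library size), for libraries A, B and C in that order, and the p-values come from edgeR's quasi-likelihood test with Benjamini-Hochberg adjustment over 17409 genes. A gene is said to have risen or fallen where its adjusted p was under 0.05. No label says that the libraries of a group came from separate cultures, so the p-values measure the spread between these libraries. In bulk RNA, fewer cells of a type and less RNA per cell cannot be told apart. The 6 keratinocyte markers, KRT5 and KRT14 among them, were all detected in both lines and summed to 30586 to 40427 CPM in the 18 libraries. Fibroblast markers summed to 37.7 to 40.8 CPM in HaCaT at 24 h, against 24.9 to 29.1 CPM at 0 h, and to 391 to 435 CPM in TIGK at 24 h, against 236 to 274 CPM at 0 h. Most of that sum in TIGK came from the fibroblast markers DCN, with 212 to 257 CPM at 24 h, against 77.6 to 114 CPM at 0 h, and COL1A1, with 171 to 198 CPM at 24 h, against 144 to 156 CPM at 0 h. DCN stayed under 1 CPM in every HaCaT library, and COL1A2 had 5 counts in all 18 libraries together. Of the 5 fibroblast markers tested, 1 rose in HaCaT at 24 h and 4 in TIGK, where 15.5% and 15.3% of all genes rose. Their part in the results was not tested. Markers of melanocytes, immune cells and endothelium summed to at most 8.15 CPM in any library.

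By 24 h most of the glycolytic and hypoxia-responsive genes had risen in HaCaT, while in TIGK more of them had fallen than risen. In HaCaT, 28 of the 39 rose at 24 h relative to 0 h, where 15.5% of all genes tested rose, and 3 fell, where 15.9% of all genes fell. In TIGK, 3 of the 39 rose, against a background of 15.3%, and 17 fell, against a background of 17.0%. The median log2 change of the 39 was 0.69 in HaCaT, beside 0.0036 over all genes, and -0.17 in TIGK, beside -0.012 over all genes. The genes that rose in HaCaT and fell in TIGK were these 12: SLC2A1, HK2, GPI, PFKFB3, PFKFB4, ALDOC, PDK1, EGLN1, EGLN3, VEGFA, ANGPTL4 and BNIP3. Of all genes tested, 221 (1.27%) did so. Rises in both lines were seen for HK1, BNIP3L and NDRG1, and for 1189 of all genes tested (6.83%). Falls in both were seen for PFKP, SLC16A1 and SLC16A3, and for 1497 of all genes (8.60%). Both groups of 3 were near these background shares. No member fell in HaCaT and rose in TIGK, which 101 of all genes (0.580%) did.

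The difference between the lines was itself tested, as the 24 h change in HaCaT minus the 24 h change in TIGK. It was higher in HaCaT for 26 of the 39 genes, where 7.07% of all genes were called in that direction, and lower for SLC16A1 alone, where 6.45% of all genes were called. The median difference was 1.10 on the log2 scale for the 39 genes and -0.0093 over all genes. The 12 genes with no call were HK1, PFKL, PFKP, TPI1, GAPDH, PGK1, PGAM1, ENO1, PKM, LDHA, PDK3 and SLC16A3.

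**Figure D1:**
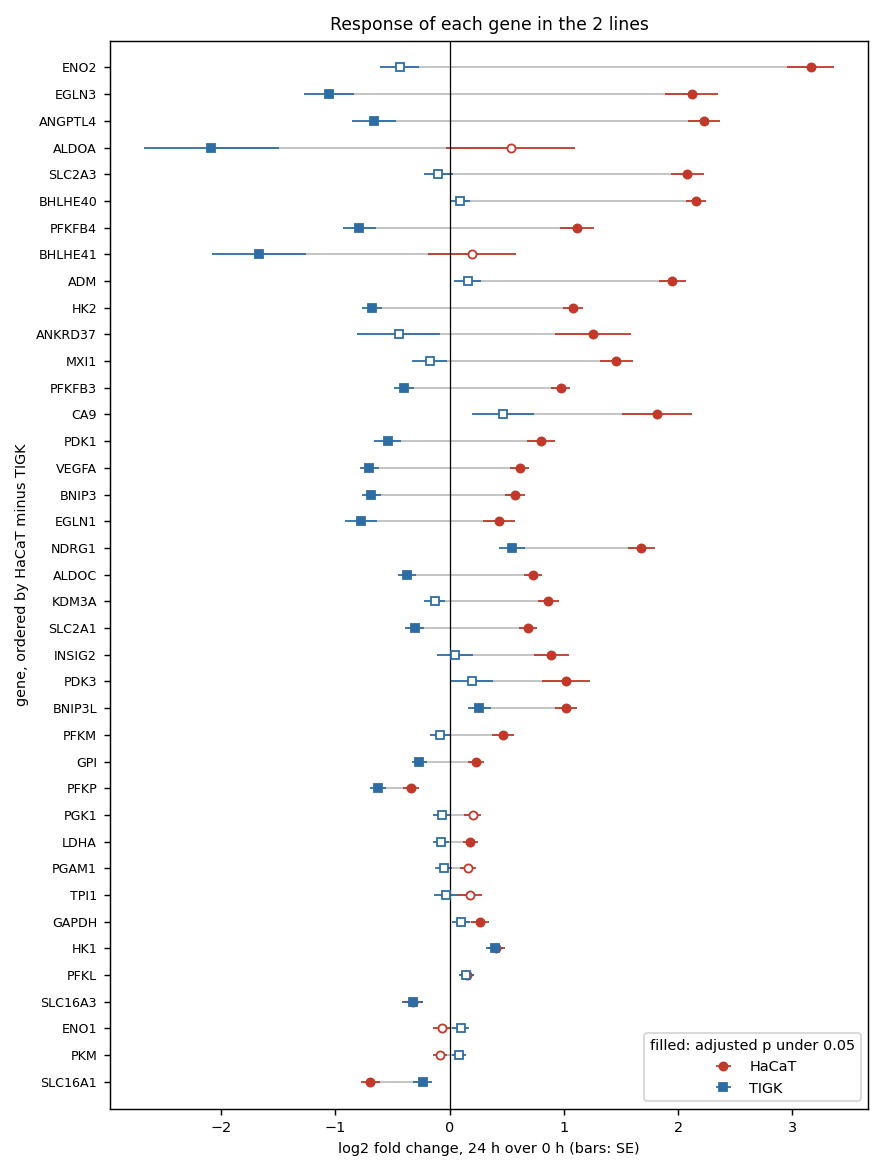
Log2 change from 0 h to 24 h of each of the 39 genes, in HaCaT and in TIGK, ordered by the difference between the lines, with bars for the standard error and filled points where the adjusted p was under 0.05. In HaCaT 28 points are filled to the right of 0 and 3 to the left, and in TIGK 3 and 17.

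At 6 h these genes had hardly moved. In HaCaT none of the 39 was called at 6 h relative to 0 h by edgeR's test or by DESeq2, where edgeR called 0.138% of all genes higher and 0.0632% lower, and 2 of the 39 had an unadjusted p under 0.05. In TIGK at 6 h, ANGPTL4 rose, where 2.50% of all genes rose, and HK2 and PFKM fell, where 1.12% of all genes fell. The calls of HK2 and PFKM were near the threshold: HK2 was lost in 16 of the 24 alternative settings tried (adjusted p 0.019 to 0.23 over the 24 alternatives) and PFKM in 17 (adjusted p 0.0020 to 0.31 over the 24 alternatives). ANGPTL4 was lost in 2 of them (adjusted p 6.1e-06 to 0.091 over the 24 alternatives), and 0 of the 3 genes were called without library TIGK 6 h B or with only the groups compared in the fit. Between 6 h and 24 h, 27 of the 39 rose and 4 fell in HaCaT, against backgrounds of 17.6% and 18.1%, while 5 rose and 16 fell in TIGK, against 17.8% and 18.9%. The 6 h change did not differ between the lines at an adjusted p under 0.05 for any of the 39, where 0.218% of all genes were called higher and 0.534% lower, with 1 gene (PFKM, adjusted p = 0.11) at an unadjusted p under 0.05 and 1 called by DESeq2.

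**Figure D2:**
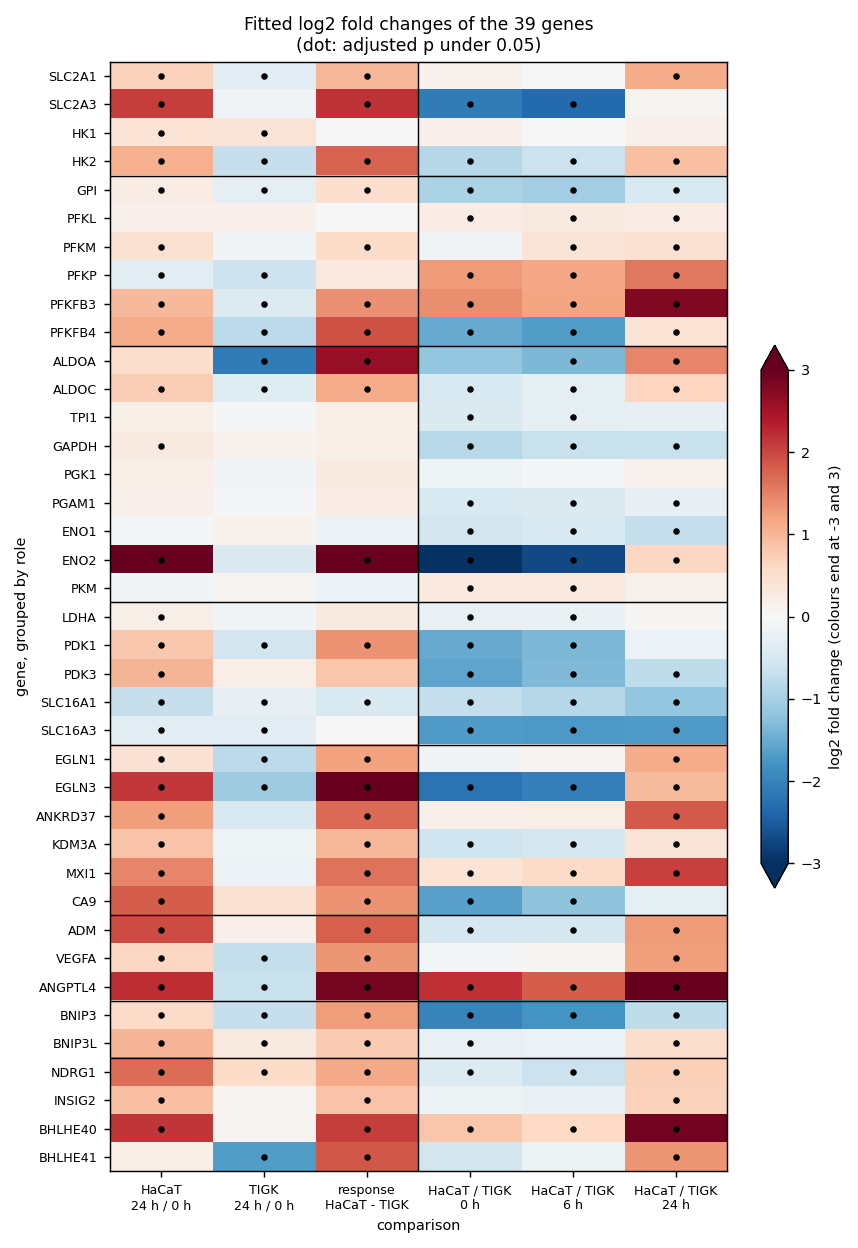
Fitted log2 fold changes of the 39 genes, down the page by role, in 6 comparisons across it, with a dot where the adjusted p was under 0.05. The left column (HaCaT, 24 h over 0 h) is red for most genes, and between the lines the 0 h and 6 h columns hold more blue and the 24 h column more red.

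To show what these genes share at their start sites, promoter windows of 300 bases (250 before and 50 after the start) were read from RefSeq, build GRCh38.p14. Of the 39 genes, 34 had an entry, and those 34 had 64 windows. The HIF core was searched as ACGTG or GCGTG on both strands. At least 1 match stood in 45 of the 64 windows (70.3%), against 17012 of all 35116 windows (48.4%). Counted by gene, 32 of 34 members (94.1%) had a match in some window, against 14318 of 27305 genes (52.4%), but the members had more windows per gene (64 for 34) than all genes did (35116 for 27305), and more windows give more chances of a match. ACGTG alone was found in 45.3% of the members' windows and in 21.4% of all, and CACGTG, the E-box that other basic helix-loop-helix factors bind and that holds ACGTG on both strands, in 15.6% and 7.26%. The members were chosen as glycolytic genes or known HIF targets, and all of them passed the filter on low counts. The windows of all genes were not limited to genes that passed it, so the shares do not compare like with like. A match is a description of the letters, not a bound site. The 6 windows printed here belong to genes with some of the largest differences described below and to PGK1, a textbook HIF target that was not called in either line. Each is printed 5′ to 3′ on the gene's strand, with the matches in capitals (CACGT and CACGC are the same cores on the opposite strand).
PFKFB4 (chr3:48556754-48557053, minus strand): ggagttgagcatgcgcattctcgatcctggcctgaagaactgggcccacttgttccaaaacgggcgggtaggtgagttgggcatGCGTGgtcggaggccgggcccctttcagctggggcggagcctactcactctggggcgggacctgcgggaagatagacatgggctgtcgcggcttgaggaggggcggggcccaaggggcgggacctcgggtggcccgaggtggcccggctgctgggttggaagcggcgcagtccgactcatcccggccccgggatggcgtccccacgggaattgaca
ENO2 (chr12:6914330-6914629, plus strand): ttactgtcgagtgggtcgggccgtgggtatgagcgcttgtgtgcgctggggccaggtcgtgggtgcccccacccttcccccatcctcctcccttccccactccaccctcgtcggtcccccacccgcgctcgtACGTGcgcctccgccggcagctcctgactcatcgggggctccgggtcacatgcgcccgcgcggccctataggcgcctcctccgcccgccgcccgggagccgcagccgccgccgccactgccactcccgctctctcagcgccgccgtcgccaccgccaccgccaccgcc
PGK1 (chrX:78103998-78104297, plus strand): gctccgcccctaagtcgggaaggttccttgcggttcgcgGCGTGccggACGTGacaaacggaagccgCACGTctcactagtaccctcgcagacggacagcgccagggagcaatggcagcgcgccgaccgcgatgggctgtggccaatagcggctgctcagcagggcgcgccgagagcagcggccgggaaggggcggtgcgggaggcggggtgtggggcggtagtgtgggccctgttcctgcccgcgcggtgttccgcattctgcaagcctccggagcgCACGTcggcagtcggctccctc
ADM (chr11:10304823-10305122, plus strand): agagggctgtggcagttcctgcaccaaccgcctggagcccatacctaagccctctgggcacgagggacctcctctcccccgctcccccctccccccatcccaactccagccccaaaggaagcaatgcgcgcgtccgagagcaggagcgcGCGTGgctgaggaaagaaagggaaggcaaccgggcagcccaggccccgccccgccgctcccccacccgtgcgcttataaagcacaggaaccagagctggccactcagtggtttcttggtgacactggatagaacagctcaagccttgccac
BNIP3 (chr10:131981874-131982173, minus strand): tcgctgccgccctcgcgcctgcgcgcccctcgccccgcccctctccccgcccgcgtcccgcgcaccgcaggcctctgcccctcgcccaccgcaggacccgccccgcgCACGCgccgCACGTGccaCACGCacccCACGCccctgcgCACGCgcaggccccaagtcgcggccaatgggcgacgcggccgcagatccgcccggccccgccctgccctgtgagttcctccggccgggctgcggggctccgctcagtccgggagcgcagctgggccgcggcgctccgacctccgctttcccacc
BHLHE40 (chr3:4979187-4979486, plus strand): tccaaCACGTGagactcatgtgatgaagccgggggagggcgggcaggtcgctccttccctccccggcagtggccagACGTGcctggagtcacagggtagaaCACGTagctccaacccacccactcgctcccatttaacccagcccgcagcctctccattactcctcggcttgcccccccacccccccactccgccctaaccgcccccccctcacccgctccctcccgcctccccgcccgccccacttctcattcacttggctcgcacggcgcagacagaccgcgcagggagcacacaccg
With both strands counted, the windows of PGK1 and BHLHE40 each held 4 matches, that of BNIP3 6, and those of PFKFB4, ENO2 and ADM 1 each. A CACGTG counts as a match on each strand. The windows of BHLHE40 and BNIP3 each held 1 CACGTG, so each shows 1 marked stretch fewer than its matches. The PGK1 window held 0 CACGTG, so its 4 matches are separate stretches. PGK1, with 4 matches, changed by 0.20 on the log2 scale in HaCaT at 24 h, and ENO2, with 1, by 3.16.

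Glucose entry and its trapping by phosphorylation came first in the pathway. All 4 of these genes rose in HaCaT at 24 h, by 0.41 to 2.08 on the log2 scale, where 15.5% of all genes rose. In TIGK HK1 rose, SLC2A1 and HK2 fell, and SLC2A3 was not called, where 15.3% of all genes rose and 17.0% fell. SLC2A3 (ENSG00000059804, chr12:7919230-7936275, minus strand) encodes GLUT3, a glucose transporter of high affinity. In HaCaT it stood at 9.55, 6.62 and 6.68 CPM at 0 h, 5.97, 6.42 and 4.81 CPM at 6 h and 30.4, 33.3 and 32.8 CPM at 24 h, and in TIGK at 33.9, 30.5 and 33.2 CPM at 0 h, 28.3, 32 and 26.8 CPM at 6 h and 34.2, 31.1 and 25.9 CPM at 24 h. The HaCaT 24 h libraries lay above all other HaCaT libraries and within the span of the TIGK libraries, which overlapped across all 3 times. SLC2A3 was 4.23-fold higher in HaCaT at 24 h than at 0 h (log2 2.08, SE 0.14, adjusted p = 5.5e-11), and its TIGK change was -0.10 (adjusted p = 0.61). Between the lines it was 4.27-fold lower in HaCaT than in TIGK at 0 h (adjusted p = 4.0e-12) and not called at 24 h (log2 0.082, SE 0.13). The near-identical copy SLC2A14 held 1.75% as many reads as SLC2A3.

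HK2 (ENSG00000159399, chr2:74833981-74893359, plus strand) is the hexokinase that HIF and growth signals induce, and HK1 (ENSG00000156515, chr10:69269984-69401884, plus strand) is the form most cells carry at all times. HK2 stood at 104, 91.3 and 103 CPM at 0 h, 96.3, 91.8 and 90.7 CPM at 6 h and 199, 199.6 and 229 CPM at 24 h in HaCaT. In TIGK it stood at 195, 166 and 177 CPM at 0 h, 150.0, 144 and 144 CPM at 6 h and 124, 113 and 98.9 CPM at 24 h. The lines thus crossed: every HaCaT 0 h library lay below every TIGK 0 h library, and every HaCaT 24 h library lay above every TIGK 24 h library. HK2 was 2.11-fold higher at 24 h than at 0 h in HaCaT (log2 1.08, SE 0.086, adjusted p = 7.0e-10) and 1.60-fold lower in TIGK (log2 -0.68, SE 0.085, adjusted p = 1.1e-06). HK1 in HaCaT stood at 297, 301 and 303 CPM at 0 h, 299, 285 and 288 CPM at 6 h and 395, 393 and 409 CPM at 24 h. In TIGK HK1 stood at 286, 274 and 254 CPM at 0 h, 301, 293 and 264 CPM at 6 h and 388, 328 and 353 CPM at 24 h. Its 24 h libraries lay above its 0 h libraries in both lines, with a rise of 1.33-fold in HaCaT (log2 0.41, SE 0.072, adjusted p = 8.7e-05) and of 1.31-fold in TIGK (log2 0.39, SE 0.072, adjusted p = 1.5e-04). SLC2A1, which encodes the widespread transporter GLUT1, was 1.61-fold higher at 24 h in HaCaT and 1.24-fold lower in TIGK (adjusted p = 3.7e-07 and 0.0049).

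The 6 genes of the hexose phosphate steps split by subunit. In HaCaT, GPI, PFKM, PFKFB3 and PFKFB4 rose, PFKP fell and PFKL was not called, where 15.5% of all genes rose and 15.9% fell. In TIGK none rose and GPI, PFKP, PFKFB3 and PFKFB4 fell, where 15.3% of all genes rose and 17.0% fell. PFKFB3 (ENSG00000170525, chr10:6144934-6254644, plus strand) and PFKFB4 (ENSG00000114268, chr3:48517684-48562015, minus strand) make fructose 2,6-bisphosphate, the strongest known activator of phosphofructokinase. PFKFB3 stood at 191, 170.2 and 202 CPM at 0 h, 194, 198 and 189.8 CPM at 6 h and 354, 374 and 375 CPM at 24 h in HaCaT. In TIGK PFKFB3 stood at 81.1, 68 and 65.3 CPM at 0 h, 87.6, 92.3 and 78.2 CPM at 6 h and 57, 51.4 and 53.4 CPM at 24 h. All 9 HaCaT libraries lay above all 9 TIGK libraries, and the gap was widest at 24 h: 2.63-fold at 0 h and 6.82-fold at 24 h (adjusted p = 5.7e-13 and 3.0e-18). By 24 h PFKFB3 had risen 1.96-fold in HaCaT (log2 0.97, SE 0.084, adjusted p = 2.6e-09) and was 1.32-fold lower in TIGK (log2 -0.40, SE 0.088, adjusted p = 8.6e-04). PFKFB4, whose promoter window is printed above, stood at 11.7, 11.5 and 13.9 CPM at 0 h, 12.8, 10.4 and 9.86 CPM at 6 h and 29.4, 24.1 and 26.7 CPM at 24 h in HaCaT. For TIGK the PFKFB4 values were 39, 35 and 31.4 CPM at 0 h, 35.4, 37.9 and 32.3 CPM at 6 h and 16.6, 18.4 and 26 CPM at 24 h. HaCaT lay below TIGK in every library at 0 h and 6 h, and at 24 h the lines met, with the TIGK C library inside the HaCaT span (log2 0.40, adjusted p = 0.020, lost without HaCaT 24 h A and without TIGK 24 h A or B). PFKFB4 was 2.17-fold higher at 24 h in HaCaT (log2 1.11, SE 0.15, adjusted p = 2.6e-06) and 1.73-fold lower in TIGK (log2 -0.79, SE 0.14, adjusted p = 1.3e-04). The overlapping UCN2 row, on the same strand, held 21.5% as many reads as PFKFB4. UCN2 changed the other way, by -0.59 in HaCaT and 0.66 in TIGK, neither called, with a line difference of -1.25 (adjusted p = 0.049).

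PFKP (ENSG00000067057, chr10:3066333-3137712, plus strand), the platelet-type phosphofructokinase, stood at 427, 442 and 426 CPM at 0 h, 462, 428 and 451 CPM at 6 h and 362, 320.3 and 342 CPM at 24 h in HaCaT. In TIGK PFKP stood at 183, 183 and 165 CPM at 0 h, 203, 208 and 189 CPM at 6 h and 117, 109.8 and 117 CPM at 24 h. It fell in both lines, with the 24 h libraries below all others of their line, by 1.26-fold in HaCaT (log2 -0.34, SE 0.069, adjusted p = 4.6e-04) and 1.54-fold in TIGK (log2 -0.62, SE 0.070, adjusted p = 2.3e-07). PFKM, the muscle-type subunit, was 1.38-fold higher at 24 h in HaCaT (adjusted p = 4.6e-04) and was not called in TIGK (log2 -0.081), though its row overlaps SENP1, which held 52.0% as many reads. GPI, the isomerase after the hexokinase step, was higher by 0.23 on the log2 scale in HaCaT (adjusted p = 0.012). That call was lost without library HaCaT 0 h A and without HaCaT 24 h C (adjusted p 4.4e-04 to 0.062 over the 24 alternatives). In TIGK GPI changed by -0.27 (adjusted p = 0.0036). PFKL, the liver-type subunit, changed by 0.15 in HaCaT and 0.15 in TIGK, and neither was called.

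**Figure D3:**
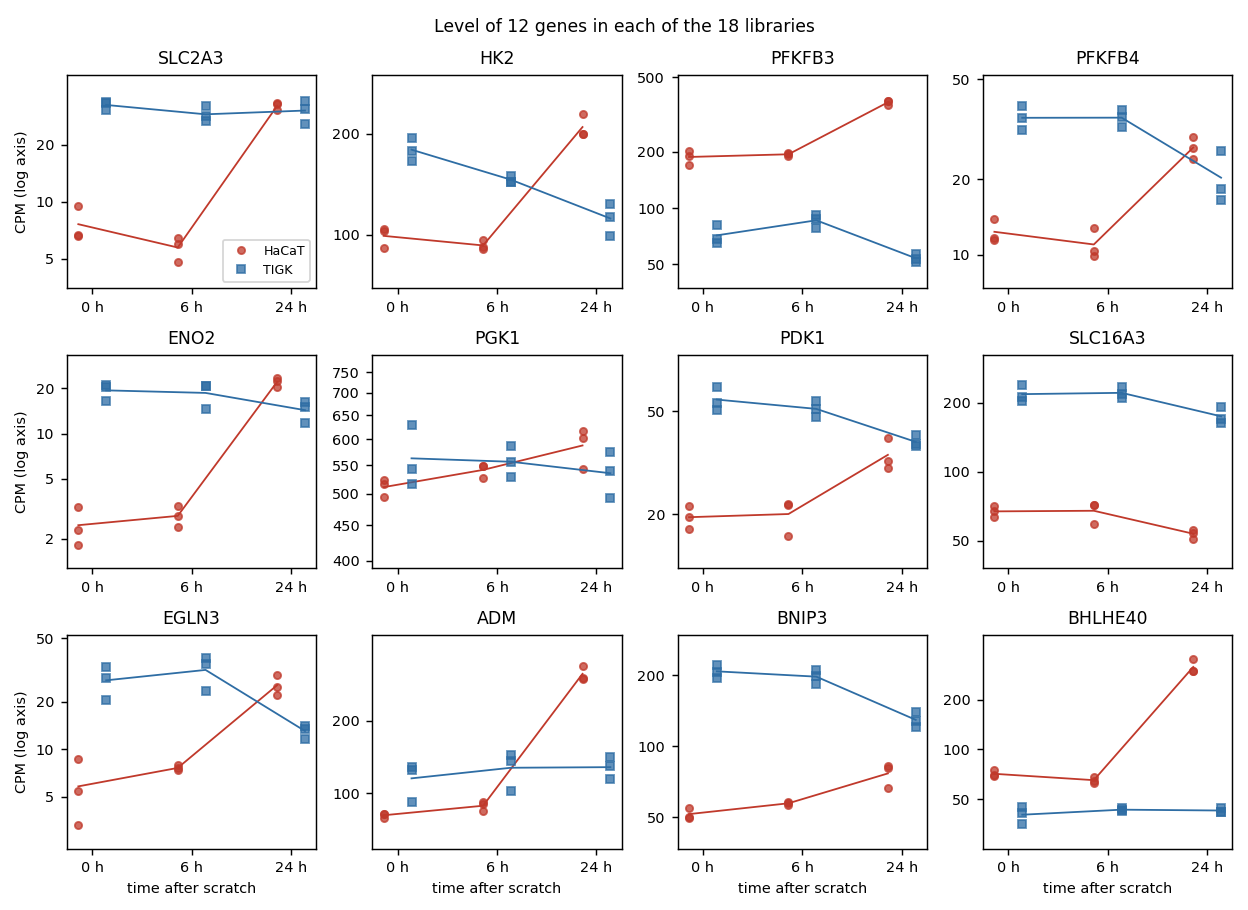
CPM (log axis, each panel with its own scale) of 12 genes in the 18 libraries at 0 h, 6 h and 24 h, with 1 point per library and lines through the group means. The lines of HaCaT and TIGK cross between 6 h and 24 h for HK2, PFKFB4, ENO2, EGLN3 and ADM. They also cross for SLC2A3 and PGK1, which were not called between the lines at 24 h. They do not cross for PFKFB3, PDK1, SLC16A3, BNIP3 and BHLHE40.

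Of the 9 genes of lower glycolysis, from aldolase to pyruvate kinase, 3 rose in HaCaT at 24 h (GAPDH, ALDOC and ENO2), where 15.5% of all genes rose, and none fell. In TIGK none rose and 2 fell (ALDOA and ALDOC), where 17.0% of all genes fell. ENO2 (ENSG00000111674, chr12:6913745-6923698, plus strand) encodes the neuronal enolase, one of the enzymes that turn 2-phosphoglycerate into phosphoenolpyruvate. ENO2 stood at 2.31, 3.28 and 1.81 CPM at 0 h, 2.86, 2.38 and 3.29 CPM at 6 h and 22.3, 20.5 and 23.6 CPM at 24 h in HaCaT. In TIGK the ENO2 values were 21.2, 16.5 and 20.5 CPM at 0 h, 20.6, 14.7 and 20.6 CPM at 6 h and 14.9, 11.7 and 16.3 CPM at 24 h. Every HaCaT 24 h library lay above every TIGK 24 h library, and the 0 h and 6 h HaCaT libraries lay below all TIGK libraries. ENO2 was 8.93-fold higher at 24 h in HaCaT (log2 3.16, SE 0.20, adjusted p = 1.7e-11), and its change in TIGK missed the threshold (log2 -0.44, adjusted p = 0.051), which it passed in 8 of the 24 alternatives. The overlapping LRRC23 row held 27.9% as many reads as ENO2 and changed by 0.38 on the log2 scale in HaCaT (adjusted p = 0.28). ENO1, the enolase of most cells, had 363 ± 21.4 FPKM in HaCaT at 24 h, against 376 ± 5.42 FPKM at 0 h. On that scale ENO2 made up 1.40% ± 0.0196 of ENO1 and ENO2 together at 24 h, against 0.150% ± 0.0430 at 0 h (SD, n = 3 each).

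ALDOC (ENSG00000109107, chr17:28573115-28577264, minus strand), an aldolase best known from brain, stood at 77.1, 72.2 and 77.1 CPM at 0 h, 72.2, 72 and 77.5 CPM at 6 h and 119.8, 125 and 131 CPM at 24 h in HaCaT. In TIGK ALDOC stood at 106, 98.2 and 106 CPM at 0 h, 84.3, 91.2 and 93.9 CPM at 6 h and 75.3, 76.7 and 87.7 CPM at 24 h. The lines crossed here as they did for HK2, with HaCaT below TIGK in each 0 h library and above it in each 24 h library. ALDOC was 1.66-fold higher at 24 h in HaCaT (log2 0.73, SE 0.077, adjusted p = 6.4e-08) and 1.3-fold lower in TIGK (log2 -0.37, SE 0.076, adjusted p = 4.7e-04). GAPDH (ENSG00000111640, chr12:6533927-6538374, plus strand), which oxidises glyceraldehyde 3-phosphate, stood at 1349, 1409 and 1225 CPM at 0 h, 1487, 1377 and 1455 CPM at 6 h and 1616, 1446 and 1719.9 CPM at 24 h in HaCaT. In TIGK GAPDH stood at 2334, 2306 and 2486 CPM at 0 h, 2233, 2237 and 2439 CPM at 6 h and 2348, 2502 and 2785 CPM at 24 h. HaCaT lay below TIGK in every library at every time, 1.79-fold lower at 0 h (log2 -0.84, SE 0.078, adjusted p = 1.1e-09). Its rise in HaCaT was small, 1.20-fold (adjusted p = 0.010), and was lost without library HaCaT 0 h C and without HaCaT 24 h C (adjusted p 8.9e-04 to 0.093 over the 24 alternatives).

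ALDOA (ENSG00000149925, chr16:30064164-30070457, plus strand), the aldolase of muscle and of most other cells, was listed at low levels in every library. It stood at 4.42, 6.07 and 4.93 CPM at 0 h, 5.72, 4.28 and 4.57 CPM at 6 h and 9.21, 7.02 and 6.07 CPM at 24 h in HaCaT and at 4.24, 4.56 and 24.7 CPM at 0 h, 5.39, 4.95 and 26.6 CPM at 6 h and 3.54, 2.74 and 1.78 CPM at 24 h in TIGK. Libraries TIGK 0 h C and TIGK 6 h C, which also stood apart in genes detected, lay several times above the other TIGK libraries of those times. The call of a fall in TIGK (log2 -2.09, adjusted p = 0.0078) was lost without them (log2 -0.71, adjusted p = 0.056) and without TIGK 0 h C alone (adjusted p 1.2e-19 to 0.33 over the 24 alternatives). The row overlaps AC093512.2 on the same strand, which held 42.7% as many reads, and how shared reads were treated is not given in the sources used here, so these values are not read as the level of aldolase A. TPI1, PGK1, PGAM1, ENO1 and PKM, which carry out the remaining steps, were not called at 24 h in either line, with log2 changes of -0.085 to 0.20 in HaCaT and -0.071 to 0.10 in TIGK. PGK1 was called higher in HaCaT in 11 of the 24 alternatives (adjusted p 0.0066 to 0.19 over the 24 alternatives). Between the lines, TPI1, GAPDH, PGAM1 and ENO1 were lower in HaCaT at 0 h, by -0.55 for ENO1, and PKM was higher, by 0.30.

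The pyruvate branch point and lactate export were covered by 5 genes. In HaCaT LDHA, PDK1 and PDK3 rose and the exporters SLC16A1 and SLC16A3 fell, where 15.5% of all genes rose and 15.9% fell. In TIGK both exporters and PDK1 fell, where 17.0% of all genes fell. PDK1 (ENSG00000152256, chr2:172555373-172608669, plus strand), a kinase that inactivates pyruvate dehydrogenase, stood at 19.4, 17.5 and 21.4 CPM at 0 h, 16.4, 21.9 and 21.7 CPM at 6 h and 32.2, 30.2 and 39.3 CPM at 24 h in HaCaT. In TIGK PDK1 stood at 62, 50.4 and 54 CPM at 0 h, 51, 54.7 and 47.6 CPM at 6 h and 37.3, 40.3 and 36.6 CPM at 24 h. Every HaCaT library of 0 h and 6 h lay below every TIGK library, and at 24 h the groups overlapped. PDK1 was 1.74-fold higher at 24 h in HaCaT (log2 0.80, SE 0.12, adjusted p = 1.5e-05) and 1.46-fold lower in TIGK (log2 -0.54, SE 0.12, adjusted p = 7.6e-04). PDK3 (ENSG00000067992, chrX:24465221-24541862, plus strand), a second kinase of that family, stood at 4.36, 2.91 and 3.31 CPM at 0 h, 4.19, 3.48 and 4.51 CPM at 6 h and 6.54, 7.43 and 7.44 CPM at 24 h in HaCaT. For TIGK the PDK3 values were 12.3, 8.83 and 10.7 CPM at 0 h, 9.72, 11 and 9.72 CPM at 6 h and 13.5, 14.3 and 8.62 CPM at 24 h. HaCaT lay below TIGK throughout and approached it at 24 h, with a rise of 2.02-fold in HaCaT (log2 1.02, SE 0.21, adjusted p = 5.6e-04) and no call in TIGK (log2 0.20).

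SLC16A1 (ENSG00000155380, chr1:112911847-112957013, minus strand) and SLC16A3 (ENSG00000141526, chr17:82228397-82261129, plus strand) encode the lactate transporters MCT1 and MCT4. SLC16A1 stood at 254, 242 and 260.1 CPM at 0 h, 252, 285 and 254 CPM at 6 h and 150.2, 164 and 152 CPM at 24 h in HaCaT. In TIGK SLC16A1 stood at 450.4, 409 and 372 CPM at 0 h, 515, 489 and 419.6 CPM at 6 h and 340.0, 344 and 361 CPM at 24 h. Its 24 h libraries were the lowest of their line, and it was 1.62-fold lower at 24 h in HaCaT (log2 -0.70, SE 0.083, adjusted p = 4.5e-07) and 1.18-fold lower in TIGK (log2 -0.24, SE 0.081, adjusted p = 0.028), a TIGK call lost with only the groups compared and without library A or B of TIGK at 0 h or at 24 h (adjusted p 0.0017 to 0.16 over the 24 alternatives). SLC16A3 stood at 70.5, 63.6 and 67.2 CPM at 0 h, 71.4, 59.3 and 71.9 CPM at 6 h and 55.9, 53.9 and 51.1 CPM at 24 h in HaCaT. In TIGK SLC16A3 stood at 203, 240.4 and 211 CPM at 0 h, 219.7, 234 and 209.7 CPM at 6 h and 169.5, 163 and 191 CPM at 24 h. All HaCaT libraries lay below all TIGK libraries, with a gap of 3.25-fold at 0 h and 3.26-fold at 24 h (adjusted p = 2.5e-14 and 3.1e-14), and the falls by 24 h were 1.25-fold in HaCaT (log2 -0.32, SE 0.090, adjusted p = 0.0071) and 1.25-fold in TIGK (log2 -0.32, SE 0.085, adjusted p = 0.0049). The overlapping CSNK1D row held 128% as many reads as SLC16A3 and itself changed by -0.22 in HaCaT (adjusted p = 0.0088). LDHA, which makes lactate from pyruvate, was only 1.13-fold higher at 24 h in HaCaT (adjusted p = 0.042), a call lost in 12 of the 24 settings (adjusted p 0.0039 to 0.19 over the 24 alternatives), and was not called in TIGK (log2 -0.076).

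The 6 genes grouped here under oxygen sensing and HIF feedback were EGLN1, EGLN3, ANKRD37, KDM3A, MXI1 and CA9. Only EGLN1 and EGLN3 among them are HIF hydroxylases, and EGLN2, VHL and HIF1AN are described with the HIF machinery below. All 6 rose in HaCaT at 24 h, where 15.5% of all genes rose. In TIGK EGLN1 and EGLN3 fell and none rose, where 17.0% of all genes fell and 15.3% rose. EGLN1 (ENSG00000135766, chr1:231363751-231425044, minus strand) and EGLN3 (ENSG00000129521, chr14:33924231-34462774, minus strand) encode HIF prolyl hydroxylases that are themselves HIF targets. EGLN3 stood at 3.33, 8.73 and 5.43 CPM at 0 h, 7.56, 7.39 and 7.92 CPM at 6 h and 24.7, 22.1 and 29.3 CPM at 24 h in HaCaT. In TIGK EGLN3 stood at 33.1, 28.2 and 20.4 CPM at 0 h, 34.3, 37.4 and 23.3 CPM at 6 h and 11.7, 14 and 13.5 CPM at 24 h. HaCaT lay below TIGK in every library at 0 h and 6 h and above it in every library at 24 h. EGLN3 was 4.34-fold higher at 24 h in HaCaT (log2 2.12, SE 0.24, adjusted p = 1.5e-07) and 2.08-fold lower in TIGK (log2 -1.06, SE 0.22, adjusted p = 5.1e-04). The overlapping SPTSSA row, on the same strand, held 358% as many reads and changed by 0.28 in HaCaT and 0.27 in TIGK, neither called. EGLN1 stood at 94.2, 84.3 and 89.3 CPM at 0 h, 89.6, 93.2 and 92.1 CPM at 6 h and 123, 125 and 113 CPM at 24 h in HaCaT. In TIGK EGLN1 stood at 109, 106 and 70.5 CPM at 0 h, 100.3, 97.7 and 63.2 CPM at 6 h and 57.1, 57.6 and 52 CPM at 24 h. Library C was the lowest TIGK library at 0 h and at 6 h for both hydroxylases, and the TIGK 24 h libraries lay below them. EGLN1 was 1.35-fold higher at 24 h in HaCaT (log2 0.43, SE 0.14, adjusted p = 0.018), a call lost without library B or C of HaCaT at 0 h or A or B at 24 h (adjusted p 1.8e-05 to 0.070 over the 24 alternatives), and 1.71-fold lower in TIGK (log2 -0.77, SE 0.14, adjusted p = 1.4e-04). On the FPKM scale EGLN3 made up 17.2% ± 2.79 of EGLN1 and EGLN3 together in HaCaT at 24 h, against 6.11% ± 2.98 at 0 h, and 18.8% ± 1.84 in TIGK at 24 h, against 22% ± 1.09 at 0 h.

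MXI1 (ENSG00000119950, chr10:110207605-110287365, plus strand) encodes a MAX partner that opposes MYC, and KDM3A (ENSG00000115548, chr2:86440647-86492716, plus strand) a histone H3 lysine 9 demethylase. MXI1 stood at 22.2, 21.3 and 22.1 CPM at 0 h, 16, 19.9 and 19.2 CPM at 6 h and 62.5, 48.3 and 69.5 CPM at 24 h in HaCaT. In TIGK MXI1 stood at 17.4, 17.8 and 14.3 CPM at 0 h, 15.4, 9.71 and 11.9 CPM at 6 h and 15.4, 14.8 and 13.4 CPM at 24 h. The HaCaT 24 h libraries lay far above all others, and MXI1 was 2.75-fold higher there than at 0 h (log2 1.46, SE 0.14, adjusted p = 2.4e-08) and not called in TIGK (log2 -0.17). KDM3A stood at 63.4, 67.7 and 63.6 CPM at 0 h, 57.8, 67 and 61.1 CPM at 6 h and 118, 113 and 123 CPM at 24 h in HaCaT. In TIGK KDM3A stood at 117, 94.8 and 84.6 CPM at 0 h, 92, 85.7 and 85.7 CPM at 6 h and 86.2, 95 and 88.6 CPM at 24 h. HaCaT lay below TIGK at 0 h and above it at 24 h, after a rise of 1.82-fold (log2 0.86, SE 0.094, adjusted p = 1.0e-07), while the TIGK change was not called (log2 -0.13). CA9, a carbonic anhydrase at the cell surface, was 3.52-fold higher at 24 h in HaCaT (adjusted p = 4.8e-05), and ANKRD37 2.38-fold higher (adjusted p = 0.0050), but both stayed near or under 10 CPM in every library. CA9 overlaps ARHGEF39 and ANKRD37 overlaps UFSP2, whose rows held 216% and 248% as many reads as these genes.

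All 3 secreted factors rose in HaCaT at 24 h, by 0.61 to 2.22 on the log2 scale, where 15.5% of all genes rose. ANGPTL4 (ENSG00000167772, chr19:8363289-8374373, plus strand), an inhibitor of lipoprotein lipase that is also known from wound re-epithelialisation, stood at 31.1, 30.8 and 28.9 CPM at 0 h, 46, 36.9 and 37.4 CPM at 6 h and 136, 117 and 171 CPM at 24 h in HaCaT. In TIGK ANGPTL4 stood at 5.65, 7.15 and 7.0 CPM at 0 h, 8.52, 14 and 11.5 CPM at 6 h and 4.78, 3.92 and 3.90 CPM at 24 h. Every HaCaT library lay above every TIGK library. In TIGK the 6 h libraries were the highest of the line and the 24 h libraries the lowest. ANGPTL4 was 4.67-fold higher at 24 h in HaCaT (log2 2.22, SE 0.14, adjusted p = 1.2e-11). In TIGK it was 1.71-fold higher at 6 h than at 0 h (log2 0.77, SE 0.17, adjusted p = 0.0071) and 1.58-fold lower at 24 h than at 0 h (log2 -0.66, SE 0.19, adjusted p = 0.010). Between the lines it was 33.6-fold higher in HaCaT at 24 h and 4.56-fold at 0 h (adjusted p = 7.4e-18 and 1.3e-11).

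ADM (ENSG00000148926, chr11:10304680-10307397, plus strand), which encodes the vasodilator peptide adrenomedullin, stood at 79.1, 81.8 and 81.9 CPM at 0 h, 91.5, 84.2 and 90.2 CPM at 6 h and 302, 298 and 338 CPM at 24 h in HaCaT. In TIGK ADM stood at 125, 129 and 91.6 CPM at 0 h, 136, 144 and 102 CPM at 6 h and 129.8, 114 and 141 CPM at 24 h. The HaCaT 24 h libraries lay above all others, and the TIGK groups overlapped, with library C lowest at 0 h and at 6 h. ADM was 3.86-fold higher at 24 h in HaCaT (log2 1.95, SE 0.12, adjusted p = 6.9e-12) and was not called in TIGK (log2 0.16, SE 0.12). VEGFA (ENSG00000112715, chr6:43770184-43786487, plus strand), the main growth factor of blood vessels, stood at 139.9, 124 and 135 CPM at 0 h, 106, 121 and 130.4 CPM at 6 h and 206, 194 and 209 CPM at 24 h in HaCaT. In TIGK VEGFA stood at 128, 138 and 149.9 CPM at 0 h, 117, 111 and 120.5 CPM at 6 h and 88.5, 85.9 and 81 CPM at 24 h. The lines overlapped at 0 h (log2 -0.064, adjusted p = 0.51) and stood apart at 24 h, after a rise of 1.53-fold in HaCaT (log2 0.61, SE 0.081, adjusted p = 2.0e-06) and a fall of 1.63-fold in TIGK (log2 -0.70, SE 0.082, adjusted p = 3.7e-07).

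The mitophagy receptors BNIP3 (ENSG00000176171, chr10:131966455-131982013, minus strand) and BNIP3L (ENSG00000104765, chr8:26382898-26505636, plus strand) mark mitochondria for removal. BNIP3 stood at 54.7, 50.1 and 49.5 CPM at 0 h, 57.7, 57.5 and 56.3 CPM at 6 h and 82.2, 66.6 and 81 CPM at 24 h in HaCaT. In TIGK BNIP3 stood at 221, 196 and 207 CPM at 0 h, 198, 185 and 210.0 CPM at 6 h and 120.3, 128 and 140.1 CPM at 24 h. Every HaCaT library lay below every TIGK library at each time, 4.04-fold lower at 0 h and 1.69-fold at 24 h (adjusted p = 7.1e-16 and 3.5e-08), so the lines drew closer without crossing. BNIP3 was 1.49-fold higher at 24 h in HaCaT (log2 0.57, SE 0.087, adjusted p = 1.3e-05) and 1.61-fold lower in TIGK (log2 -0.68, SE 0.083, adjusted p = 7.3e-07). BNIP3L stood at 51.8, 42.8 and 50.3 CPM at 0 h, 46.6, 48.3 and 42.2 CPM at 6 h and 101, 87.2 and 105 CPM at 24 h in HaCaT. In TIGK BNIP3L stood at 63.5, 54.6 and 52.2 CPM at 0 h, 51, 55 and 48.3 CPM at 6 h and 61.8, 68.9 and 72.8 CPM at 24 h. Its rise in HaCaT was 2.03-fold (log2 1.02, SE 0.10, adjusted p = 2.1e-08), and its smaller rise in TIGK (log2 0.26, SE 0.10, adjusted p = 0.048) was lost in 16 of the 24 settings (adjusted p 0.018 to 0.19 over the 24 alternatives). The HaCaT and TIGK libraries of BNIP3L did not overlap at 0 h, but the call there (log2 -0.23, adjusted p = 0.047) was lost in 14 settings (adjusted p 0.020 to 0.24 over the 24 alternatives).

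Of the other HIF targets, NDRG1, INSIG2 and BHLHE40 rose in HaCaT, where 15.5% of all genes rose. In TIGK NDRG1 rose and BHLHE41 fell, where 15.3% of all genes rose and 17.0% fell. BHLHE40 (ENSG00000134107, chr3:4979116-4985323, plus strand), a transcriptional repressor of the clock and of metabolism, stood at 68.9, 69.9 and 74.7 CPM at 0 h, 62.9, 64 and 68.3 CPM at 6 h and 299, 298 and 355 CPM at 24 h in HaCaT. In TIGK BHLHE40 stood at 44.5, 40.8 and 35.1 CPM at 0 h, 42.7, 44.2 and 42.4 CPM at 6 h and 44.1, 41.7 and 41.9 CPM at 24 h. The TIGK libraries stayed within a narrow band at all times, and the HaCaT 24 h libraries lay several times above everything else. BHLHE40 was 4.46-fold higher at 24 h in HaCaT (log2 2.16, SE 0.087, adjusted p = 5.3e-15) and not called in TIGK (log2 0.089, SE 0.089). NDRG1 (ENSG00000104419, chr8:133237171-133302022, minus strand), induced by hypoxia and by differentiation, stood at 539, 536 and 542 CPM at 0 h, 510.1, 483 and 510.2 CPM at 6 h and 1718, 1539 and 1910.2 CPM at 24 h in HaCaT. In TIGK NDRG1 stood at 897, 665 and 602 CPM at 0 h, 887, 794 and 674 CPM at 6 h and 1119, 925 and 1116 CPM at 24 h. It was 3.19-fold higher at 24 h in HaCaT (log2 1.68, SE 0.12, adjusted p = 7.6e-11) and 1.46-fold higher in TIGK (log2 0.55, SE 0.12, adjusted p = 6.7e-04), and in both lines the 24 h libraries lay above the others. INSIG2, which retains the sterol sensor SCAP in the endoplasmic reticulum, was 1.85-fold higher at 24 h in HaCaT (adjusted p = 7.9e-05), between 11.1 and 23.9 CPM over the HaCaT libraries. BHLHE41, a relative of BHLHE40, stayed under 5 CPM in every library.

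Set against TIGK at each time, HaCaT was lower for most of these genes at 0 h and higher for most at 24 h. At 0 h 7 of the 39 were higher and 22 lower in HaCaT than in TIGK, against backgrounds of 29.3% and 33.3%, and at 6 h 8 were higher and 22 lower, against 29.8% and 32.8%. At 24 h 23 were higher and 8 lower, against 28.6% and 33.1%. The median HaCaT minus TIGK difference of the 39 was 0.45 on the log2 scale at 24 h and -0.45 at 0 h, while that over all genes was -0.050 and -0.038. HK2, PFKFB4, ALDOC, ENO2, EGLN3, KDM3A, ADM, BNIP3L and NDRG1 were lower in HaCaT at 0 h and higher at 24 h, as were 131 of all genes tested (0.752%). GPI, GAPDH, PGAM1, ENO1, PDK3, SLC16A1, SLC16A3 and BNIP3 were lower in HaCaT at both times, as were 4613 of all genes tested (26.5%). PFKL, PFKP, PFKFB3, MXI1, ANGPTL4 and BHLHE40 were higher at both, as were 3855 of all genes tested (22.1%). The genes lower at both times and those higher at both made up no larger a share of the 39 than of all genes. A further 8 genes were not called at 0 h and were higher in HaCaT at 24 h. These 8 were SLC2A1, PFKM, ALDOA, EGLN1, ANKRD37, VEGFA, INSIG2 and BHLHE41. The same held for 988 of all genes tested (5.68%). Of the 0 h calls, that of BNIP3L was lost in 14 of the 24 alternatives (adjusted p 0.020 to 0.24 over the 24 alternatives). The call of MXI1 was lost without library TIGK 0 h C (adjusted p 0.0065 to 0.10 over the 24 alternatives) and that of NDRG1 without TIGK 0 h A (adjusted p 6.8e-08 to 0.055 over the 24 alternatives). Among the 24 h calls, that of ALDOA was lost in 5 of the 24 alternatives, that of PFKFB4 in 3 and that of BHLHE41 in 1.

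Within enzyme families the proportions of the forms were compared on the FPKM scale, which divides by transcript length. Only forms among the 39 genes were counted, which leaves out PFKFB2, SLC2A6, ENO3 and EGLN2 among others. In HaCaT at 0 h PFKFB2 had 6.01, 5.87 and 7.35 FPKM, against 1.88, 1.85 and 2.24 FPKM for PFKFB4. SLC2A6 had 10.9, 11.2 and 9.46 FPKM there, against 1.53, 1.05 and 1.07 FPKM for SLC2A3. Among the forms counted, HK1, PFKFB3, SLC2A1 and ENO1 were the major ones in all 6 groups. HK2 made up 35.3% ± 1.35 of HK1 and HK2 together in HaCaT at 24 h, against 25.6% ± 1.41 at 0 h, and 24.6% ± 1.90 in TIGK at 24 h, against 40.7% ± 1.81 at 0 h (SD, n = 3 each). Among the 3 phosphofructokinase subunits, PFKP held 60.8% ± 0.965 in HaCaT at 24 h, against 69.7% ± 0.466 at 0 h, and 38.9% ± 0.897 in TIGK at 24 h, against 51% ± 2.01 at 0 h. PFKL was the largest of the 3 in TIGK at 24 h, with 45.8% ± 0.686, and PFKP in the other 5 groups. PFKFB4 held 6.19% ± 0.366 of PFKFB3 and PFKFB4 together in HaCaT at 0 h, against 33% ± 0.882 in TIGK. SLC2A3 (GLUT3) remained minor beside SLC2A1 in both lines, with 4.62% ± 0.440 of their sum in HaCaT at 24 h and 8.99% ± 1.16 in TIGK. The most abundant members on this scale were GAPDH, with 533 ± 46.1 FPKM in HaCaT and 844 ± 70.5 FPKM in TIGK at 24 h, and ENO1, with 363 ± 21.4 FPKM and 590.3 ± 64.4 FPKM in the same groups.

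**Figure D4:**
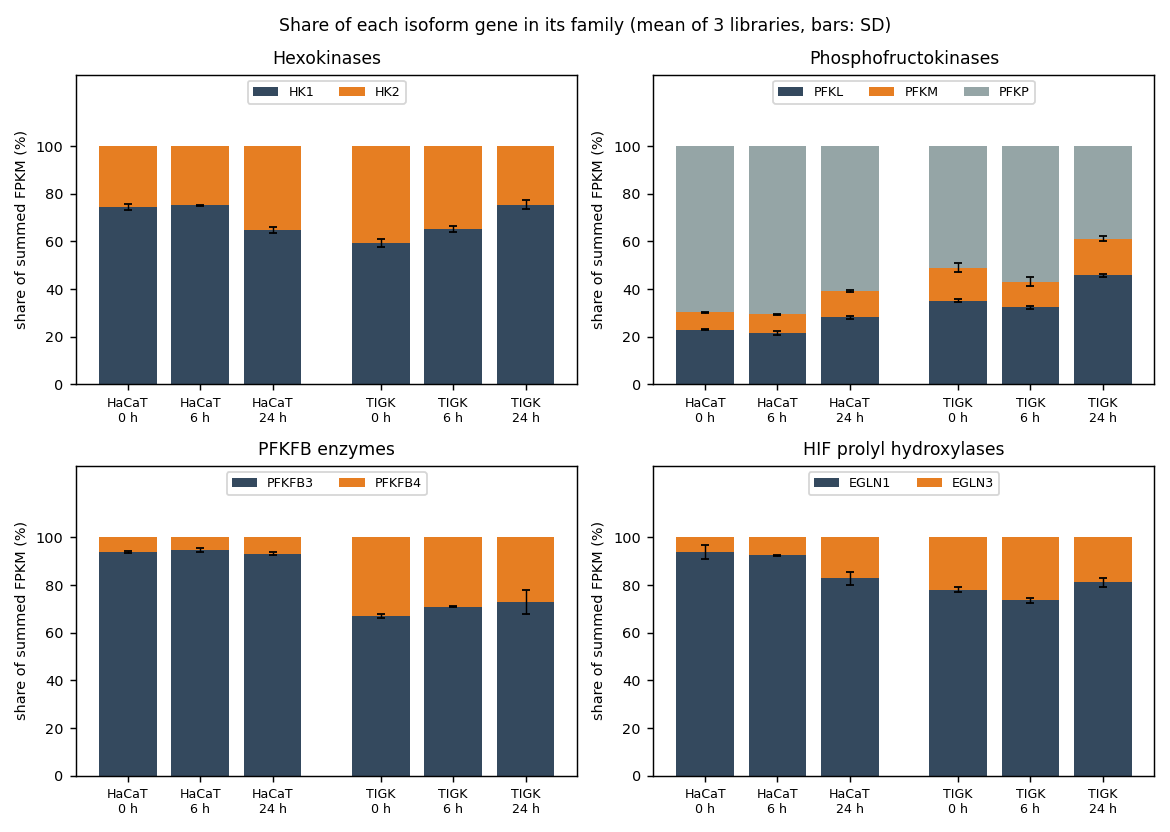
Share of each family's summed FPKM held by each of its genes, as bars stacked to 100%, by line and time (means of 3 libraries, error bars for the SD of the segment below them). The HK2 segment is larger at 24 h than at 0 h in HaCaT and smaller in TIGK.

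Genes around this set were taken from 5 lists of related pathways. Of 25 other HIF targets tested, 18 rose and none fell in HaCaT at 24 h, where 15.5% of all genes rose and 15.9% fell. In TIGK 2 rose and 12 fell, where 15.3% of all genes rose and 17.0% fell. The median log2 changes were 0.69 in HaCaT and -0.27 in TIGK. The 24 h change was higher in HaCaT than in TIGK for 21 of the 25, against 7.07% of all genes. DDIT4, an inhibitor of mTORC1, was 2.96-fold higher at 24 h in HaCaT (adjusted p = 1.2e-12), PPFIA4 3.53-fold higher and the lipid droplet gene HILPDA 2.35-fold higher. In TIGK the carbonic anhydrase CA12, PPFIA4 and the collagen lysyl hydroxylase PLOD2 fell, by -1.26, -1.36 and -0.88 on the log2 scale. At 0 h 3 of the 25 were higher and 21 lower in HaCaT than in TIGK, against 29.3% and 33.3% of all genes, with GBE1, PLOD2 and LOX lower by 23-fold, 11.6-fold and 62.6-fold.

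The HIF machinery itself was covered by 14 tested genes. HIF1A, the alpha subunit most cells use, stood at 101 ± 2.84 CPM at 24 h and 111 ± 4.56 CPM at 0 h in HaCaT, and at 391 ± 19.1 CPM at 24 h and 394 ± 39.1 CPM at 0 h in TIGK (SD, n = 3 each). It was 3.55-fold lower in HaCaT than in TIGK at 0 h (log2 -1.83, SE 0.083, adjusted p = 1.6e-15) and was not called over time in either line (log2 -0.13 in HaCaT and -0.0076 in TIGK at 24 h). EPAS1, which encodes HIF-2 alpha, was lower in HaCaT at 0 h by -0.49 (adjusted p = 5.3e-05). ARNT, their shared partner, rose in both lines, by 0.53 in HaCaT and 0.56 in TIGK (adjusted p = 2.7e-05 and 1.7e-05). CITED2, which competes with HIF for the coactivators CBP and p300, was 2.15-fold higher at 24 h in HaCaT (adjusted p = 3.6e-09), and CUL2 changed by -0.31 (adjusted p = 0.015). The hydroxylase EGLN2 was lower in HaCaT than in TIGK at 0 h by -1.14 (adjusted p = 0.0017), while VHL and HIF1AN were not called there (log2 -0.28 and -0.17). Of the 14 genes, 2 rose and 1 fell in HaCaT at 24 h, where 15.5% of all genes rose and 15.9% fell, so the share that rose was near the background. In TIGK 1 rose and 1 fell, where 15.3% and 17.0% of all genes did, the fall being HIF1AN (-0.27). HIF is regulated mainly at the level of the protein, which was not measured here.

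Neighbouring pathways of carbon metabolism were covered by 3 lists. Of 16 other glycolytic genes tested, 2 rose and 1 fell in HaCaT at 24 h, and 3 rose and 5 fell in TIGK. Of all genes, 15.5% rose and 15.9% fell in HaCaT and 15.3% rose and 17.0% fell in TIGK, so the shares of these 16 that rose were near the background. PGAM5, which despite its name is a mitochondrial protein phosphatase, fell in both lines, by -0.91 in HaCaT and -0.58 in TIGK, and the pyruvate carrier subunit MPC2 and the kinase PDK2 rose in HaCaT, by 0.68 and 0.67. LDHB, the lactate dehydrogenase subunit of heart, was 4.41-fold lower in HaCaT than in TIGK at 0 h (adjusted p = 4.5e-13), while FBP1, which runs the phosphofructokinase step backwards, was higher in HaCaT by 5.34 on the log2 scale (adjusted p = 3.7e-14). Of 7 pentose phosphate genes, 2 rose and 1 fell in HaCaT and 2 rose and 2 fell in TIGK, with PGD at 0.35 in HaCaT and -0.33 in TIGK. Of 22 genes of pyruvate dehydrogenase and the citric acid cycle, 6 rose and 1 fell in HaCaT, and none rose and 2 fell in TIGK, and PDP2, a pyruvate dehydrogenase phosphatase, fell in both (-0.62 in HaCaT and -0.55 in TIGK). At 0 h 10 of these 22 were higher in HaCaT than in TIGK and 6 lower, against 29.3% and 33.3% of all genes, with OGDH and FH higher by 1.14 and 0.96.

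**Figure D5:**
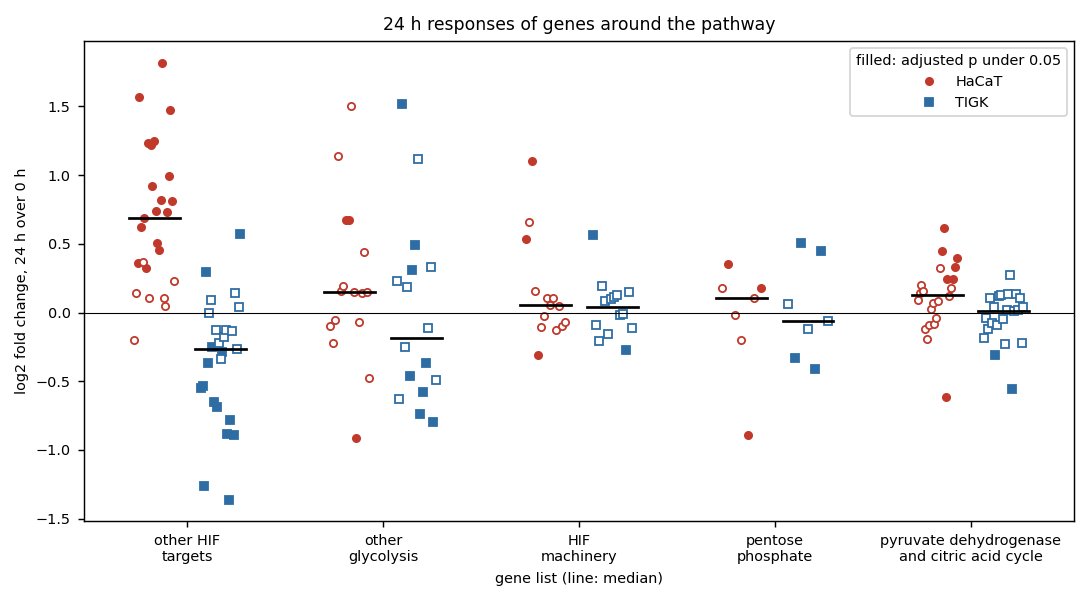
Log2 change from 0 h to 24 h of the tested genes of 5 lists in HaCaT and TIGK, with 1 point per gene, filled where the adjusted p was under 0.05, and a line for each median. Other HIF targets lie mostly above 0 in HaCaT (18 of 25 filled) and mostly below it in TIGK.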

How the data were processed

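Bulk RNA-seq was read from 18 libraries, 3 for each of 6 groups of line and time. The deposited counts per gene and the deposited FPKM values were made by the authors. Per the submitters' processing notes, build hg38 was used with featureCounts (1.5.0-p3), HISAT2 (2.0.5) and StringTie (1.3.3b), and the strand setting and the treatment of reads shared by overlapping genes are not given in the sources used here. The columns carry letters A to C that the labels do not tie to their replicate numbers, so libraries were placed by line and time alone, and 0 columns belonged to other samples. Library totals ran from 14238090 to 25011331 counts, and no interval was needed for any share. The authors' comparison tables were not used here.

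The test across genes was edgeR's (4.0.16, under R 4.3.3), with TMM scaling, its filterByExpr filter (17409 genes kept), 6 group means, 12 residual degrees of freedom, the two-sided quasi-likelihood test and Benjamini-Hochberg adjustment over all genes kept, called at an adjusted p under 0.05. Fold changes use a prior count of 0.125, and the SE is the log2 fold change divided by the root of F. FPKM was used only to describe levels and family shares, and no test was run on it. On simulated counts for the HaCaT 24 h comparison, 40 of 50 genes changed 1.5-fold, 47 of 50 changed 2-fold and 50 of 50 changed 4-fold were recovered, and 15 of 17209 unchanged genes were called.

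The 39 genes and the surrounding lists were chosen with earlier results of these data known. Values in every library are given for the 2 genes of each role with the largest called change in each of 4 comparisons (the lines at 0 h, each line at 24 h, and the line difference at 24 h) that reached 10 CPM. Alternatives were DESeq2 1.42.0, RLE scaling, no filter, only the groups compared, leaving out each library, leaving out TIGK 0 h C and 6 h C together, and a replicate block by letter. Promoter sequences are from RefSeq, GRCh38.p14.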

Additional observations from a re-analysis of the deposited data

Results flagged for a closer look

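The 24 h change differed between the lines, by edgeR's quasi-likelihood test of the difference itself, for 27 of the 39 genes. Of all genes tested, 7.07% were called higher in HaCaT and 6.45% lower. Each value is the log2 change in HaCaT minus that in TIGK. For glucose entry it was 0.99 for SLC2A1, 2.18 for SLC2A3 and 1.76 for HK2. For the hexose phosphate steps it was 0.49 for GPI, 0.55 for PFKM, 1.37 for PFKFB3 and 1.90 for PFKFB4. Below aldolase it was 3.60 for ENO2, the largest of the 39, and at aldolase 1.10 for ALDOC and 2.62 for ALDOA, where library C of TIGK at 0 h and at 6 h set the value apart (1.24 without both, adjusted p = 0.020). At the pyruvate branch it was 1.34 for PDK1 and -0.46 for SLC16A1, the one gene with the lower change in HaCaT.

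Among the genes grouped under oxygen sensing and feedback the difference was 1.21 for EGLN1, 3.17 for EGLN3, 1.70 for ANKRD37, 1.00 for KDM3A, 1.63 for MXI1 and 1.35 for CA9. Among the secreted factors it was 1.79 for ADM, 1.32 for VEGFA and 2.88 for ANGPTL4. The mitophagy receptors had 1.26 for BNIP3 and 0.76 for BNIP3L. The remaining HIF targets had 1.13 for NDRG1, 0.85 for INSIG2, 2.07 for BHLHE40 and 1.86 for BHLHE41, whose levels stayed under 5 CPM. The adjusted p ran from 4.5e-11 for BHLHE40 to 0.033 for ALDOA. Calls lost in some alternatives were those of ALDOA (adjusted p 2.3e-15 to 0.25 over the 24 alternatives), BHLHE41 (adjusted p 0.0026 to 0.092 over the 24 alternatives), CA9 (adjusted p 0.0047 to 0.094 over the 24 alternatives) and ANKRD37, which was lost without library C of HaCaT or of TIGK at 24 h (adjusted p 9.4e-04 to 0.072 over the 24 alternatives).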

How the results depend on the processing

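No call on any of the 39 genes changed direction in any of the alternatives. Counts of genes called at 24 h and between the lines stayed within 1.5 times: leaving out 1 library at a time gave 28 to 32 for HaCaT 24 h relative to 0 h, 18 to 21 for TIGK and 25 to 28 for the line difference. The 6 h counts moved more. For TIGK at 6 h, 3 genes were called, 6 by DESeq2, 1 with RLE scaling and 0 with only the groups compared, and leaving out 1 library gave 0 (without TIGK 6 h B) to 4 (without TIGK 6 h C). For the line difference at 6 h, 0 genes were called and 1 by DESeq2, with no filter, without TIGK 0 h C and 6 h C together and with the replicate block, and 0 to 1 on leaving out 1 library. HaCaT at 6 h had 0 calls and 1 with only the groups compared. The letters shared by columns correlated by -0.017 to 0.083 within a line over 17 pairs, with 0.35 for TIGK 0 h C and 6 h C, and by -0.027 to 0.038 across lines, so they are not read as pairs, and the replicate block gained 11 calls on single genes and lost 0. Over all genes, HaCaT at 6 h had 35 calls, with 107 by DESeq2, 130 with no filter, 200 with only the groups compared, 77 without TIGK 0 h C and 6 h C, 70 with the replicate block and 4 to 47 on leaving out 1 library. TIGK at 6 h had 630, with 359 on fitting only the groups compared and 350 to 817 on leaving out 1 library. The line difference at 6 h had 131, with 307 by DESeq2, 293 with no filter, 212 with the replicate block and 68 to 260 on leaving out 1 library. The calls most often lost were those of PFKM and HK2 in TIGK at 6 h, BNIP3L in TIGK at 24 h and between the lines at 0 h, ENO1 in HaCaT between 6 h and 24 h, and LDHA in HaCaT at 24 h, all under 0.35 on the log2 scale. The cause of these changes was not tested. PGK1 in HaCaT at 24 h was gained in 11 of 24 settings. Counts were fewest for BHLHE41, ANKRD37 and CA9, with 830, 1086 and 1433 over the 18 libraries, which limits the precision of their values.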
